A study of Saccharomyces cerevisiae with 83 samples.

Results

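Copper homeostasis genes of budding yeast were described across all strains and assays of a study of nonsense-mediated mRNA decay (NMD). The 9 genes CTR1, CTR2, CTR3, MAC1, CUP2, CRS5, ATX1, CCC2 and SOD1 were taken by locus tag from the 6952 transcripts listed for every library. No measured value entered the rule that names them, but earlier results of these data were known when they were chosen. Each matched 1 entry, with no separate unspliced entry.

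Yeast takes up copper, once reduced at the cell surface, through the plasma membrane transporters Ctr1 and Ctr3, while Ctr2 releases it from the vacuole. The activator Mac1 turns on uptake genes, among them CTR1, CTR3 and the reductase gene FRE1, when copper is scarce, and the activator Cup2 (also called Ace1) turns on the metallothionein genes CUP1 and CRS5, together with SOD1, when copper is high. Inside the cell the chaperone Atx1 hands copper to Ccc2, a P-type ATPase of the Golgi that loads the ferroxidase Fet3, and Sod1 is the copper- and zinc-dependent superoxide dismutase. NMD is the pathway, with Upf1, Upf2 and Upf3 as its core factors, that removes mRNAs whose translation ends early. Several copper genes of yeast have reported NMD control.

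In genome build R64, the uptake genes lie on chromosomes XVI (CTR1, YPR124W, 786208 to 787428), VIII (CTR2, YHR175W, 452872 to 453441) and XII (CTR3, YLR411W, 947253 to 947978). The regulator genes lie on chromosome XIII (MAC1, YMR021C, 317165 to 318418) and chromosome VII (CUP2, YGL166W, 191129 to 191806). CRS5 (YOR031W) lies on chromosome XV at 389213 to 389422, and RefSeq gives it the biotype pseudogene. ATX1 (YNL259C) lies on chromosome XIV at 157644 to 157865, CCC2 (YDR270W) on chromosome IV at 1005675 to 1008689 and SOD1 (YJR104C) on chromosome X at 622550 to 623014. These are coding lengths, from 210 nt in CRS5 and 222 nt in ATX1 to 3015 nt in CCC2.

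All cultures were of the W303 background and each strain carried plasmids. In the experiment with C-terminal tags (3 replicates per strain, all given 100 µg/ml cycloheximide in culture and lysis buffer at harvest, rRNA removed with QIAseq FastSelect), Upf1-FLAG cells were upf1::HIS3 with pRS425-UPF1-FLAG. DE572AA-FLAG cells were upf1::HIS3 with pRS425-DE572AA-FLAG, a Upf1 mutant known to lack ATPase activity, and Upf1-FLAG_upf2Δ cells were nmd2::HIS3 upf1::URA3 with pRS425-UPF1-FLAG (NMD2 is the gene for Upf2). WT-C cells were wild type with empty pRS425. In the experiment with N-terminal tags (2 replicates per strain and treatment, rRNA removed with Ribo-Zero Gold), FLAG-Upf1 cells were upf1::HIS3 with pG1-FLAG-UPF1, and FLAG-Upf2 cells were nmd2::HIS3 with YEplac112-FLAG-UPF2. FLAG-Upf3 cells were upf3::HIS3 with YEplac195-TPI-FLAG-UPF3, FLAG-Upf1+Upf2+Upf3 cells were upf1::HIS3 with pG1-FLAG-UPF1, pRS425-UPF2 and YEplac195-TPI-UPF3, and WT-N cells were wild type with YEplac112. Cells were harvested with cycloheximide (CHX) or without it (noCHX), and the strain with all 3 plasmids with CHX alone. Every tagged protein came from a plasmid, so no group was a plain deletion, and kit and tag position cannot be told apart between the experiments, and no test joined them. The vectors of FLAG-Upf1, FLAG-Upf3 and FLAG-Upf1+Upf2+Upf3 differed from that of WT-N. Effects of vector and of tagged protein cannot be told apart in these strains.

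Each lysate gave an RNA library (30 in all) and a total 80S ribosome footprint library (30), and the tagged strains gave a library of footprints from ribosomes bound by the tagged protein (IP, 23). RNA libraries held 49079265 to 164141441 counts, total footprint libraries 107334 to 3020880 and IP libraries 66971 to 1470361. Counting error is thus small for RNA and large for footprints of the less abundant genes. UPF1 RNA was above WT-C by 5.96, 4.92 and 5.02 on the log2 scale in Upf1-FLAG, DE572AA-FLAG and Upf1-FLAG_upf2Δ. NMD2 RNA was also above WT-C, by 2.50, in the strain labelled Upf1-FLAG_upf2Δ, although its genotype gives NMD2 as disrupted. The tables do not show which part of NMD2 the reads came from, so whether this goes against the label cannot be told. That strain and FLAG-Upf2 showed RNA of alpha mating type, with 923 to 960 and 1033 to 1237 CPM (counts per transcript, scaled to the same library total) summed over 4 alpha-specific genes and 36.5 to 42.7 and 9.12 to 20.05 CPM over 4 a-specific genes. The other strains held 10.7 to 196 CPM of alpha-specific and 500 to 1003 CPM of a-specific RNA. Mating type therefore moves with these strains, and its part in the results below was not tested. In bulk cultures, fewer cells of a kind and less RNA per cell cannot be told apart.

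RNA levels of the 9 genes spanned a wide range. Per length, in deposited FPKM (fragments scaled by transcript length and library total), the WT-C order was CTR1 at 427 ± 8.93, SOD1 at 329 ± 23.9, ATX1 at 76.2 ± 10.5, CTR2 at 47.6 ± 4.07 and CCC2 at 44.1 ± 5.85, followed by CRS5 at 39.1 ± 1.96, CUP2 at 28.5 ± 2.27, MAC1 at 27.3 ± 0.809 and CTR3 at 6.24 ± 0.301 (SD, n = 3). CTR2 and CCC2 lay within their SDs of each other, as did CCC2 and CRS5, and CUP2 and MAC1. In WT-N CHX lysates SOD1 came first at 709 ± 145 FPKM, and CTR1 second at 273 ± 36.4 FPKM (SD, n = 2). WT-N noCHX lysates gave 789 ± 103 FPKM for SOD1 and 166 ± 65.1 FPKM for CTR1, and CTR3 was the lowest of the 9 in all 3 wild-type groups, at 9.32 ± 1.46 FPKM in WT-N CHX and 5.13 ± 1.10 FPKM in WT-N noCHX (SD, n = 2).

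CTR1, the high-affinity copper transporter gene, had lower RNA in all 3 tagged strains of the C-terminal experiment than in WT-C. ATX1 was lower in all 3 as well, and CCC2 in DE572AA-FLAG and Upf1-FLAG_upf2Δ, while CTR2, CTR3, MAC1, CUP2, CRS5 and SOD1 were not called against WT-C in the edgeR fit over all C-terminal groups. These comparisons ask how RNA differs in cells with a tagged Upf1, an ATPase-mutant Upf1 or a tagged Upf1 in the strain labelled Upf1-FLAG_upf2Δ, and all 3 share the same WT-C libraries. CPM values of this experiment are relative to the plain library total, whereas fold changes rest on libraries scaled by the trimmed mean of M values (TMM), so a small fold change can differ in sign from the CPM.

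CTR1 RNA stood at 289, 313 and 320 CPM in the 3 Upf1-FLAG cultures, at 271, 233 and 267 CPM in DE572AA-FLAG, at 276, 387 and 319 CPM in Upf1-FLAG_upf2Δ and at 629, 605 and 610 CPM in WT-C. Every tagged culture was below every WT-C culture, and the WT-C cultures lay close together. The log2 fold change was −0.97 (SE 0.11, adjusted p = 4.32e-05) for Upf1-FLAG, −1.37 (SE 0.11, adjusted p = 7.62e-07) for DE572AA-FLAG and −0.98 (SE 0.11, adjusted p = 1.65e-05) for Upf1-FLAG_upf2Δ. These are edgeR's quasi-likelihood tests with Benjamini-Hochberg adjustment over all 6739 transcripts tested, and an adjusted p under 0.05 is a call. As ratios the 3 strains stood at 0.509, 0.386 and 0.508 of the WT-C level. Each of these calls held in all 11 alternative settings.

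**Figure D1:**
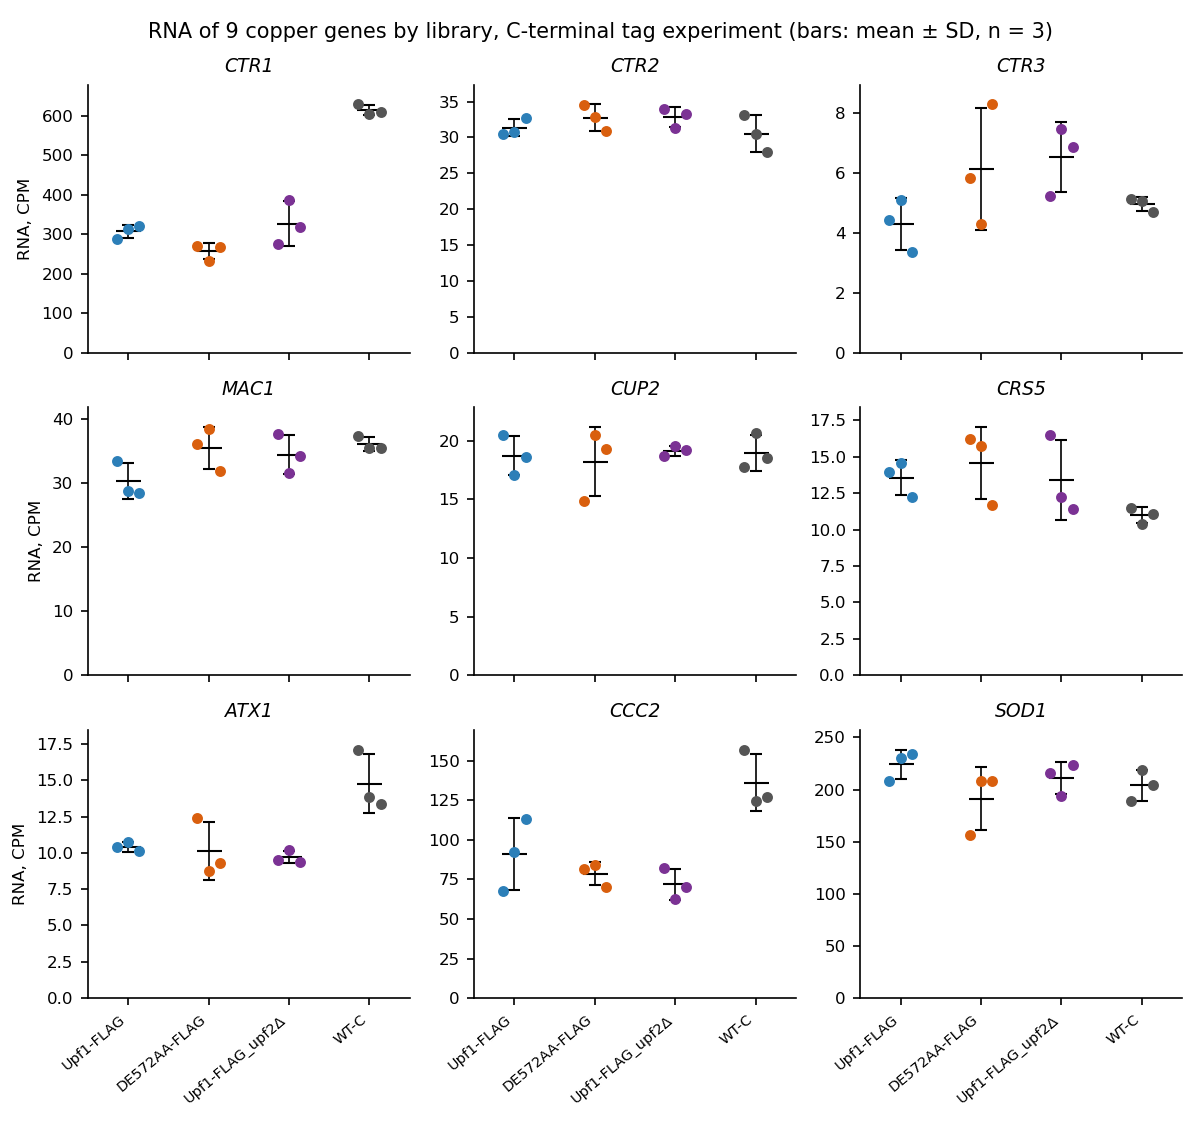
RNA of the 9 copper genes in the C-terminal experiment, 1 panel per gene, in CPM on a linear axis from 0, with a point per culture and the mean ± SD (n = 3 cultures per strain). The CTR1 points of all 3 tagged strains lie between 233 and 387 CPM, below the WT-C points at 605 to 629 CPM, while the CTR2 points of all strains overlap.

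CTR2, the vacuolar transporter gene, was the steadiest of the 9 over all 30 RNA libraries, with a coefficient of variation of 7.92%, against 32.4% for CTR1. Its RNA was 30.5, 30.8 and 32.7 CPM in Upf1-FLAG, 34.6, 32.9 and 30.9 CPM in DE572AA-FLAG, 34.0, 31.3 and 33.3 CPM in Upf1-FLAG_upf2Δ and 33.2, 30.5 and 27.9 CPM in WT-C. The groups overlapped, with log2 fold changes of 0.06, −0.01 and 0.04 (SE 0.08 each) and adjusted p of 0.592 to 0.931 by edgeR. A separate locus, YHR175W-A, lies 116 nt downstream of CTR2 and held 2.39 to 6.74 CPM, which are not part of these values. CTR3, the other plasma membrane transporter gene, stood at 4.43, 5.09 and 3.38 CPM in Upf1-FLAG, 5.83, 4.29 and 8.30 CPM in DE572AA-FLAG, 5.24, 7.48 and 6.89 CPM in Upf1-FLAG_upf2Δ and 5.15, 5.06 and 4.70 CPM in WT-C. All Upf1-FLAG_upf2Δ values were above all WT-C values, yet at 0.33 on the log2 scale the test was not passed (adjusted p = 0.264 by edgeR). The other strains overlapped with WT-C.

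MAC1, the activator of the uptake genes, had 33.5, 28.8 and 28.5 CPM in Upf1-FLAG, 36.1, 38.4 and 31.9 CPM in DE572AA-FLAG, 37.6, 31.5 and 34.2 CPM in Upf1-FLAG_upf2Δ and 37.4, 35.5 and 35.6 CPM in WT-C. Only in Upf1-FLAG did all values lie below WT-C, at −0.23 on the log2 scale (SE 0.09). The adjusted p by edgeR was 0.0556 over all C-terminal groups and 0.0175 when Upf1-FLAG and WT-C were fitted alone. CUP2, the activator of the metallothionein genes, had 20.5, 17.1 and 18.6 CPM in Upf1-FLAG, 14.8, 20.4 and 19.3 CPM in DE572AA-FLAG, 18.7, 19.5 and 19.2 CPM in Upf1-FLAG_upf2Δ and 17.7, 20.6 and 18.5 CPM in WT-C. These groups overlapped, with log2 fold changes of 0.01, −0.17 and −0.06. CRS5, the metallothionein gene, stood at 13.9, 14.6 and 12.2 CPM in Upf1-FLAG, 16.2, 15.7 and 11.7 CPM in DE572AA-FLAG, 16.5, 12.2 and 11.4 CPM in Upf1-FLAG_upf2Δ and 11.5, 10.4 and 11.1 CPM in WT-C. Upf1-FLAG (0.33, SE 0.15, adjusted p = 0.128) and DE572AA-FLAG (0.29, adjusted p = 0.125 by edgeR) did not overlap with WT-C. Fitted with WT-C alone, Upf1-FLAG had an adjusted p of 0.0324.

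ATX1, the copper chaperone gene, had 10.4, 10.7 and 10.1 CPM in Upf1-FLAG, 12.4, 8.73 and 9.31 CPM in DE572AA-FLAG, 9.51, 10.2 and 9.39 CPM in Upf1-FLAG_upf2Δ and 17.1, 13.9 and 13.3 CPM in WT-C. No tagged culture reached the lowest WT-C culture. The log2 fold changes were −0.48 (SE 0.14, adjusted p = 0.0204), −0.66 (adjusted p = 0.00153) and −0.68 (adjusted p = 0.0013) by edgeR. The Upf1-FLAG call was lost without Upf1-FLAG replicate 1 (−0.45, adjusted p = 0.0533) or WT-C replicate 1 (−0.37, adjusted p = 0.115), while the calls in the other strains held in all 11 alternatives.

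CCC2, the Golgi copper pump gene that receives copper from Atx1, had 67.4, 92.2 and 113 CPM in Upf1-FLAG, 81.4, 84.0 and 70.3 CPM in DE572AA-FLAG, 82.5, 62.7 and 70.3 CPM in Upf1-FLAG_upf2Δ and 157, 125 and 127 CPM in WT-C. All tagged cultures were below WT-C, and those of Upf1-FLAG were the most spread. CCC2 fell by 0.91 on the log2 scale in DE572AA-FLAG (adjusted p = 0.00339) and by 0.99 in Upf1-FLAG_upf2Δ (adjusted p = 0.00206), and both calls held in all 11 alternatives. In Upf1-FLAG the log2 fold change was −0.55 (SE 0.20) with adjusted p = 0.0619 by edgeR and 0.0387 by DESeq2. SOD1 RNA was 209, 230 and 234 CPM in Upf1-FLAG, 156, 209 and 208 CPM in DE572AA-FLAG, 216, 194 and 224 CPM in Upf1-FLAG_upf2Δ and 189, 219 and 205 CPM in WT-C, with overlapping groups and log2 fold changes of 0.16, −0.21 and −0.02.

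Against WT-C, 2 of the 9 genes were called in Upf1-FLAG and 3 each in DE572AA-FLAG and Upf1-FLAG_upf2Δ, all of them lower. Among all tested transcripts 30.3%, 53.9% and 53.9% were called in either direction in these comparisons, and 12.8%, 27.6% and 27.9% were called lower. The called shares of the copper genes, 22.2%, 33.3% and 33.3%, were below the shares of all transcripts called in either direction and above those called lower. They rest on 9 genes, and these differences were not tested. Median log2 fold changes of the 9 genes were −0.19, −0.17 and −0.06, against 0.00, 0.00 and −0.01 over all tested transcripts. Set directly against Upf1-FLAG, DE572AA-FLAG had 2 genes called, where 26.5% of all transcripts were. CTR1 fell by 0.40 on the log2 scale (SE 0.11, adjusted p = 0.0218 by edgeR), without overlap between the strains. This call was lost without Upf1-FLAG replicate 2 or 3 or without any of the DE572AA-FLAG cultures (adjusted p of 0.0531 to 0.0862). SOD1 fell by 0.37 (SE 0.12, adjusted p = 0.0356 by edgeR). That call was lost without Upf1-FLAG replicate 2 or 3 or without DE572AA-FLAG replicate 1 (adjusted p of 0.0874 to 0.124), the last giving −0.22, and when both strains were fitted alone (adjusted p = 0.117). Upf1-FLAG_upf2Δ against Upf1-FLAG gave 0 calls among the 9 genes in edgeR and in DESeq2, where edgeR called 22.8% of all transcripts. At an unadjusted p under 0.05 there were 2 genes, CTR3 at 0.52 (adjusted p = 0.135) and CCC2 at −0.45 (adjusted p = 0.137) on the log2 scale.

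The other 23 copper genes compared were Mac1 targets, CUP1, and genes of copper delivery, of iron uptake linked to copper, of metal transport and of regulation. Against WT-C, 3 were higher and 4 lower in Upf1-FLAG, 3 higher and 9 lower in DE572AA-FLAG, and 3 higher and 6 lower in Upf1-FLAG_upf2Δ, or 30.4%, 52.2% and 39.1% called. Of all tested transcripts, 30.3%, 53.9% and 53.9% were called in the same comparisons. Their median log2 fold changes were −0.08, −0.14 and −0.12. FRE1, the plasma membrane metal reductase gene turned on by Mac1, averaged 270 ± 67.8 CPM in Upf1-FLAG, 221 ± 27.3 CPM in DE572AA-FLAG, 270 ± 30.9 CPM in Upf1-FLAG_upf2Δ and 658 ± 47.8 CPM in WT-C (SD, n = 3). Its log2 fold changes were −1.25, −1.69 and −1.36 (adjusted p = 0.00097, 5.35e-05 and 0.000237 by edgeR), beyond those of CTR1 in each strain, though the difference between the genes was not tested. FRE7, another reductase gene turned on by Mac1, averaged 51.2 ± 8.36 CPM in Upf1-FLAG, 52.6 ± 7.85 CPM in DE572AA-FLAG, 99.6 ± 35.3 CPM in Upf1-FLAG_upf2Δ and 139 ± 6.46 CPM in WT-C (SD, n = 3), with log2 fold changes of −1.41 (adjusted p = 0.00368), −1.52 (adjusted p = 0.00106) and −0.55 (adjusted p = 0.106) by edgeR.

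FRE2, a reductase gene of iron uptake, went the other way, with 40.2 ± 4.99 CPM in Upf1-FLAG, 80.5 ± 4.94 CPM in DE572AA-FLAG, 84.1 ± 0.837 CPM in Upf1-FLAG_upf2Δ and 21.9 ± 0.736 CPM in WT-C (SD, n = 3). Its log2 fold changes were 0.90 (adjusted p = 9.43e-06), 1.77 (adjusted p = 4.34e-09) and 1.87 (adjusted p = 2.67e-09) by edgeR. FET3, whose ferroxidase is loaded with copper by Ccc2, varied widely, at 462 ± 356 CPM in Upf1-FLAG, 299 ± 111 CPM in DE572AA-FLAG, 271 ± 85.8 CPM in Upf1-FLAG_upf2Δ and 929 ± 143 CPM in WT-C (SD, n = 3). It fell by 1.74 on the log2 scale in DE572AA-FLAG (adjusted p = 0.0438) and by 1.85 in Upf1-FLAG_upf2Δ (adjusted p = 0.0355), while Upf1-FLAG gave −0.95 (adjusted p = 0.286). Each of these calls was lost when any 1 library of either of its groups was left out (adjusted p of 0.0747 to 0.131 in DE572AA-FLAG and 0.0523 to 0.105 in Upf1-FLAG_upf2Δ). In DE572AA-FLAG against WT-C, COX19 (0.53, a gene of cytochrome c oxidase assembly) and SMF1 (0.49, a manganese transporter) were also higher, and IRC7 (−0.32), CUP9 (−0.29), SLF1 (−0.45), CCS1 (−0.30, the copper chaperone for Sod1) and the CUP1 copies (−0.51, metallothionein) were lower, all as log2 fold changes. CUP1-1 and CUP1-2 are near-identical, so how their reads divide is uncertain, and each copy is counted among the lower genes. The COX19 call was lost without DE572AA-FLAG replicate 2 (0.24) or 3 or any WT-C library, the CCS1 call without DE572AA-FLAG replicate 1 (−0.17) or WT-C replicate 3, and the CUP9 call without DE572AA-FLAG replicate 1 or 3 or any WT-C library.

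**Figure D2:**
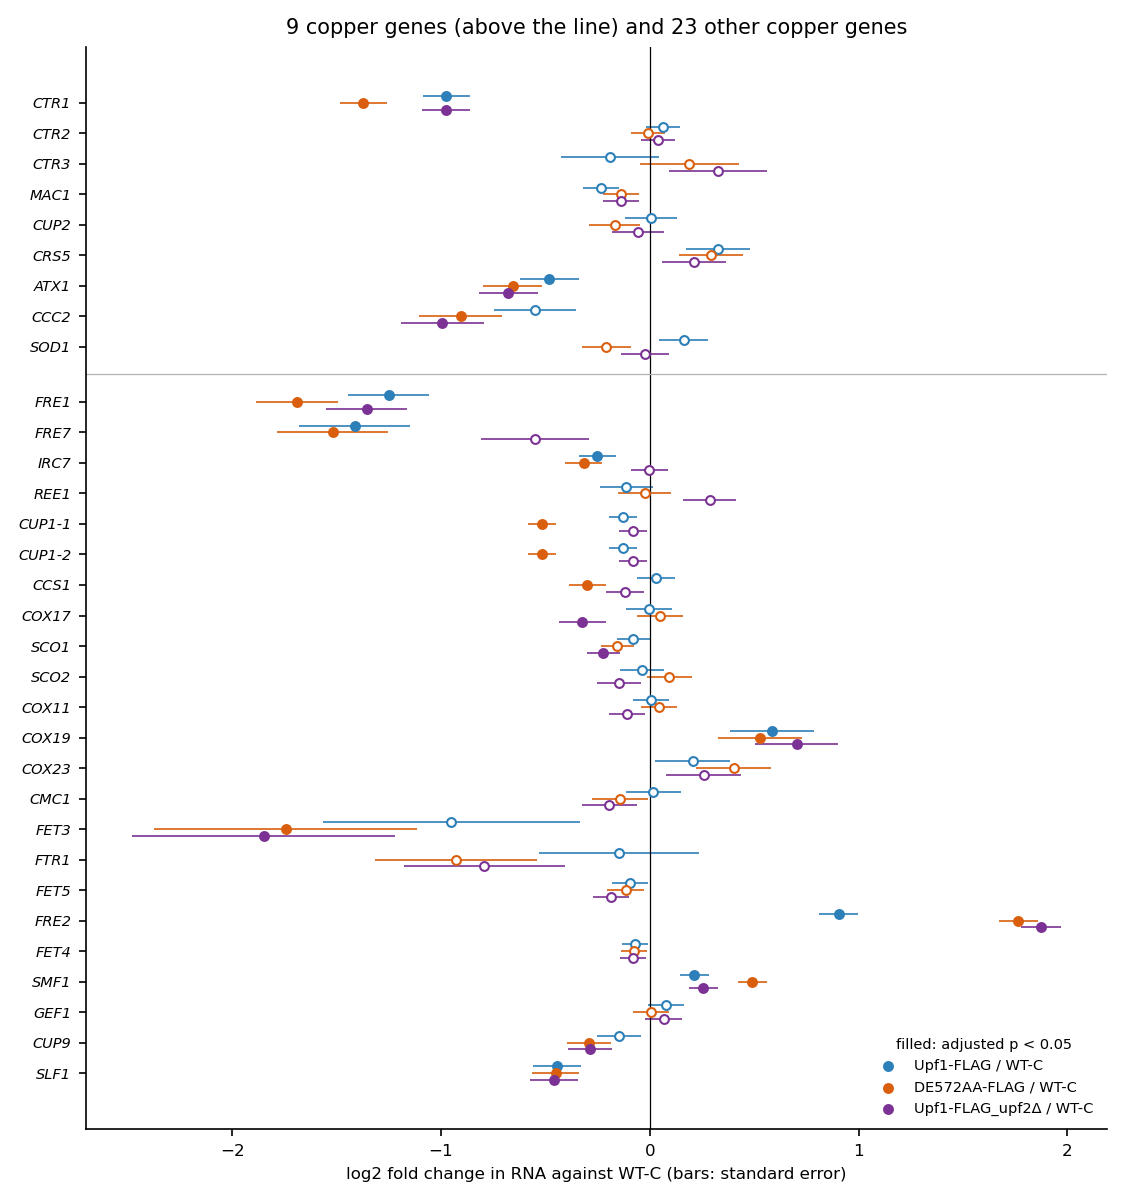
Log2 fold change of RNA against WT-C on the horizontal axis for the 9 copper homeostasis genes (above the line) and the 23 other copper genes, in the 3 tagged strains of the C-terminal experiment, with bars showing the SE and filled points an adjusted p below 0.05 by edgeR. CTR1 at −1.37 to −0.97 and FRE1 at −1.69 to −1.25 lie left of 0 in all 3 strains, and FRE2 at 0.90 to 1.87 lies right of 0.

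In the N-terminal experiment, with 2 replicates per group, CTR1 RNA was not called against WT-N in the edgeR fit over all N-terminal groups. After TMM scaling, it stood at 315 and 336 CPM in FLAG-Upf1, 385 and 290 CPM in FLAG-Upf2, 337 and 313 CPM in FLAG-Upf3 and 207 and 345 CPM in WT-N without CHX. With CHX it was 222 and 360 CPM in FLAG-Upf1, 313 and 328 CPM in FLAG-Upf2, 490 and 390 CPM in FLAG-Upf3, 237 and 296 CPM in FLAG-Upf1+Upf2+Upf3, and 321 and 382 CPM in WT-N. The FLAG-Upf3 CHX cultures were the highest pair and the FLAG-Upf1 CHX and WT-N noCHX pairs were the most spread. Log2 fold changes ran from 0.24 to 0.29 without CHX and from −0.40 to 0.32 with it (SE 0.27 each, adjusted p of 0.319 to 0.917 by edgeR).

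Of the 9 genes, CTR3 was the 1 that edgeR called between strains in that fit. It had 6.63 and 6.65 TMM-scaled CPM in FLAG-Upf1, 7.36 and 6.32 in FLAG-Upf2, 4.83 and 4.94 in FLAG-Upf3 and 4.14 and 5.31 in WT-N without CHX. FLAG-Upf1 and FLAG-Upf2 were above both WT-N cultures, and FLAG-Upf3 lay between them. CTR3 rose by 0.50 on the log2 scale in FLAG-Upf1 (SE 0.14, adjusted p = 0.014 by edgeR) and by 0.54 in FLAG-Upf2 (SE 0.14, adjusted p = 0.0209 by edgeR), and FLAG-Upf3 gave 0.06 (adjusted p = 0.89). Without WT-N replicate 1 the changes were 0.32 (adjusted p = 0.132) and 0.37 (adjusted p = 0.166). The FLAG-Upf1 call was also lost without either FLAG-Upf1 culture (adjusted p = 0.0633 and 0.063) and the FLAG-Upf2 call without FLAG-Upf2 replicate 1 (0.43, adjusted p = 0.118). Fitted with WT-N alone, neither was called (adjusted p = 0.0637 and 0.208).

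Counted over the 9 genes, 1 was called in FLAG-Upf1 noCHX and 1 in FLAG-Upf2 noCHX, where 36.8% and 14.9% of all transcripts tested were. In FLAG-Upf3 noCHX, FLAG-Upf1 CHX, FLAG-Upf2 CHX, FLAG-Upf3 CHX and FLAG-Upf1+Upf2+Upf3 CHX, edgeR and DESeq2 called 0 of the 9, where edgeR called 4.69%, 14.4%, 1.83%, 3.87% and 22.4% of all transcripts. At an unadjusted p under 0.05 there was 1 gene in these comparisons, CUP2 in FLAG-Upf3 CHX, with 31.9 and 32.4 TMM-scaled CPM against 28.4 and 24.3 in WT-N CHX (0.28 on the log2 scale, adjusted p = 0.225). CCC2 in FLAG-Upf1 noCHX had 46.3 and 47.1 TMM-scaled CPM, against 77.7 and 51.0 in WT-N noCHX, a log2 fold change of −0.47 with adjusted p = 0.111 by edgeR and 0.0429 by DESeq2. Of the other 23 copper genes, FRE2 was higher in FLAG-Upf1 noCHX (0.56, adjusted p = 0.0061), FLAG-Upf2 noCHX (0.58, adjusted p = 0.0125) and FLAG-Upf1+Upf2+Upf3 CHX (0.73, adjusted p = 0.00151) by edgeR. Without WT-N noCHX replicate 2 the first 2 were not called (adjusted p = 0.0577 and 0.0848), nor was FLAG-Upf2 without its replicate 1 (adjusted p = 0.0867).

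**Figure D3:**
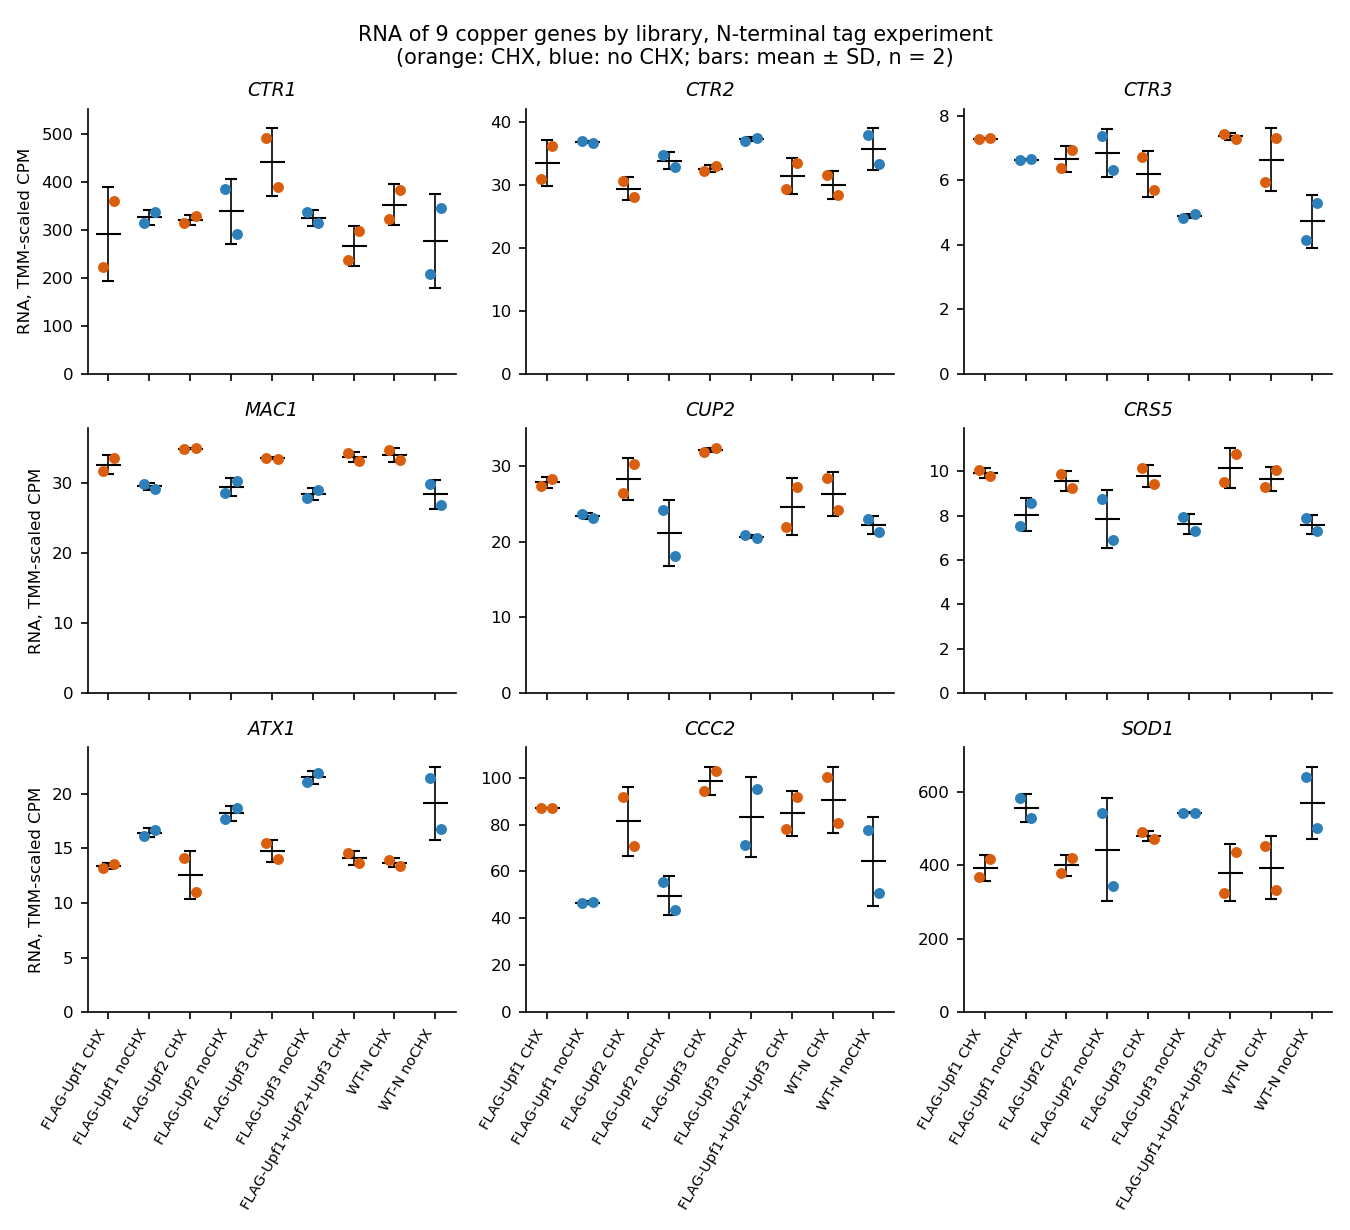
RNA of the 9 copper genes in the N-terminal experiment, 1 panel per gene, in TMM-scaled CPM on a linear axis from 0, with a point per culture and the mean ± SD (n = 2 per strain and treatment, CHX in orange, noCHX in blue). The CCC2 points of FLAG-Upf1 lie at 86.9 and 87.1 CPM with CHX against 46.3 and 47.1 CPM without. On this scale the ATX1 points with CHX lie below those without in all 4 strains compared. In unscaled CPM they do so only in FLAG-Upf3.

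Cycloheximide, which stalls elongating ribosomes, was also set against its absence within each strain of the N-terminal experiment. The fits did not pair the lysates of a culture, except where a block is named. Without pairing, MAC1 was called higher with CHX in 3 of the 4 strains and ATX1 lower in the same 3. CCC2, CUP2, CTR3 and CRS5 were called higher in some. MAC1 had 34.7 and 33.3 TMM-scaled CPM in WT-N CHX, against 29.9 and 26.9 in WT-N noCHX, and rose by 0.26 (adjusted p = 0.00187). In FLAG-Upf2 it had 34.8 and 35.0 CPM with CHX against 28.5 and 30.4 without (0.25, adjusted p = 0.00294), and in FLAG-Upf3 33.6 and 33.5 CPM with CHX against 27.8 and 29.1 without (0.24, adjusted p = 0.00363). These pairs did not overlap, each SE was 0.06, and each call held in all 10 alternatives. FLAG-Upf1 had 31.7 and 33.6 CPM with CHX against 29.9 and 29.2 without (0.14, adjusted p = 0.0558 by edgeR).

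CCC2 rose in FLAG-Upf1, at 87.1 and 86.9 TMM-scaled CPM with CHX against 46.3 and 47.1 without, by 0.90 on the log2 scale (SE 0.21, adjusted p = 0.00558 by edgeR), in all 10 alternatives. In FLAG-Upf2 it had 91.7 and 71.0 CPM with CHX against 55.5 and 43.8 without (0.71, adjusted p = 0.0158), a call lost without CHX replicate 1 (adjusted p = 0.111) or noCHX replicate 2 (adjusted p = 0.117). WT-N had 100 and 80.5 CPM with CHX against 77.7 and 51.0 without (0.49, adjusted p = 0.0694), and FLAG-Upf3 had 94.3 and 103 CPM with CHX against 71.3 and 95.4 without (0.24, adjusted p = 0.353). With the culture number as a block, which pairs the lysates of 1 culture, edgeR called both, at 0.51 (adjusted p = 0.00152) in WT-N and 0.26 (adjusted p = 0.0341) in FLAG-Upf3.

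CUP2 in FLAG-Upf3 had 31.9 and 32.4 TMM-scaled CPM with CHX against 20.9 and 20.5 without, a rise of 0.64 on the log2 scale (SE 0.13, adjusted p = 0.00122) in all 10 alternatives. In FLAG-Upf2 it had 26.4 and 30.3 CPM with CHX against 24.3 and 18.1 without (0.42, adjusted p = 0.0153), and the call was lost without CHX replicate 2 (adjusted p = 0.122) or noCHX replicate 2 (0.23, adjusted p = 0.171), while the value without noCHX replicate 1 was 0.65. CRS5 in WT-N had 9.27 and 10.04 CPM with CHX against 7.90 and 7.28 without (0.34, adjusted p = 0.024), lost without replicate 2 of either treatment (adjusted p = 0.119 with CHX left out and 0.12 with noCHX left out). In FLAG-Upf3 it had 10.1 and 9.43 CPM with CHX against 7.95 and 7.30 without (0.36, adjusted p = 0.0206), lost without CHX replicate 1 (adjusted p = 0.116) or noCHX replicate 2 (adjusted p = 0.132). None of these pairs overlapped.

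CTR3 in WT-N had 5.95 and 7.32 TMM-scaled CPM with CHX against 4.14 and 5.31 without (0.50, SE 0.14, adjusted p = 0.00771), and the call was lost without CHX replicate 2 (0.34, adjusted p = 0.0841) or noCHX replicate 1 (0.32, adjusted p = 0.0998). In FLAG-Upf3 it had 6.71 and 5.70 CPM with CHX against 4.83 and 4.94 without (0.34, adjusted p = 0.0483), a call lost with the culture block (adjusted p = 0.0537), with relative log expression factors (adjusted p = 0.0566), without CHX replicate 1 (0.22, adjusted p = 0.294) and without noCHX replicate 1 or 2 (adjusted p = 0.16 and 0.126). CTR2 in WT-N had 31.5 and 28.3 CPM with CHX against 37.9 and 33.2 without (−0.25, SE 0.09, adjusted p = 0.0277), a call lost without CHX replicate 2 (−0.18, adjusted p = 0.182) or noCHX replicate 1 (−0.15, adjusted p = 0.249). Fitted on WT-N alone, CTR2, CTR3 and CRS5 were not called (adjusted p = 0.0994, 0.0871 and 0.0632), nor was CUP2 in FLAG-Upf2 fitted alone (adjusted p = 0.0725). With the culture block CTR2 was called in FLAG-Upf2 (adjusted p = 0.0274, against 0.0686 without it) and FLAG-Upf3 (adjusted p = 0.0341, against 0.0838) too.

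ATX1 had 13.97 and 13.4 TMM-scaled CPM in WT-N CHX, against 21.5 and 16.8 in WT-N noCHX (−0.49, SE 0.12, adjusted p = 0.00367), a call lost without noCHX replicate 1 (−0.29, adjusted p = 0.0667). FLAG-Upf2 had 14.1 and 11.0 CPM with CHX against 17.7 and 18.7 without (−0.53, adjusted p = 0.00229), and FLAG-Upf3 had 15.5 and 14.04 CPM with CHX against 21.1 and 21.9 without (−0.55, adjusted p = 0.00193). In FLAG-Upf1 it had 13.2 and 13.6 CPM with CHX against 16.2 and 16.7 without (−0.30, adjusted p = 0.0567 by edgeR), called with relative log expression factors (adjusted p = 0.0449), by DESeq2 (adjusted p = 0.0311) and with that strain fitted alone (adjusted p = 0.0422). After TMM scaling, all ATX1 values with CHX lay below the noCHX values of their strain. In unscaled CPM this held only in FLAG-Upf3, and the treatments overlapped in WT-N, FLAG-Upf1 and FLAG-Upf2. SOD1 in WT-N had 454 and 334 CPM with CHX against 640 and 502 without, a log2 fold change of −0.53 with adjusted p = 0.0512 by edgeR, called with the culture block (−0.54, adjusted p = 0.0341), and CTR1 had 321 and 382 CPM with CHX against 207 and 345 without (0.35, adjusted p = 0.282).

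Of the 9 genes, WT-N had 5 called (60.3% of all transcripts), FLAG-Upf1 had 1 (48.4% of all), FLAG-Upf2 had 4 (54.7% of all) and FLAG-Upf3 had 5 (55.1% of all). Some of these directions depend on the scaling. In unscaled CPM the median log2 change with CHX over all transcripts was 0.391 for WT-N, 0.288 for FLAG-Upf1, 0.380 for FLAG-Upf2 and 0.341 for FLAG-Upf3. TMM moved these medians to 0.0169, 0.0255, 0.0157 and 0.0337, so each change above is relative to the median transcript. With library size alone CTR2 in WT-N turned to 0.13 (adjusted p = 0.124), and ATX1 was no longer called, at −0.10, −0.17 and −0.24 in WT-N, FLAG-Upf2 and FLAG-Upf3 (adjusted p = 0.449, 0.204 and 0.087 by edgeR). The higher calls of MAC1, CUP2, CTR3, CRS5 and CCC2 named here stayed higher. Tested as a difference between the CHX effects of each tagged strain and WT-N, edgeR called 0 of the 9 genes, where it called 1.74%, 0.0742% and 0.0148% of all transcripts. CTR3 in FLAG-Upf2 (−0.53, adjusted p = 0.433) was the 1 gene at an unadjusted p under 0.05.

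Total 80S footprints were measured for 7 of the 9 genes in the C-terminal experiment after the filter on low counts, without CTR3 and CRS5, and for 6 in the N-terminal one, also without ATX1. CTR1 footprints were lower in all 3 tagged strains than in WT-C, as its RNA was. They stood at 354, 478 and 501 CPM in Upf1-FLAG, 363, 344 and 438 CPM in DE572AA-FLAG, 369, 565 and 491 CPM in Upf1-FLAG_upf2Δ and 468, 726 and 716 CPM in WT-C. DE572AA-FLAG lay below all WT-C libraries, and the other strains overlapped with WT-C replicate 1. The log2 fold changes were −0.68 (SE 0.17, adjusted p = 0.0389), −0.93 (SE 0.18, adjusted p = 0.00247) and −0.60 (SE 0.17, adjusted p = 0.0421) by edgeR. The DE572AA-FLAG call held in all 11 alternatives. The Upf1-FLAG call was lost without Upf1-FLAG replicate 1 (adjusted p = 0.0938) or 2 (adjusted p = 0.0779) or WT-C replicate 2 (adjusted p = 0.169) or 3 (adjusted p = 0.16). The Upf1-FLAG_upf2Δ call was lost without its replicate 1 (−0.45, adjusted p = 0.148) or 3 (adjusted p = 0.12) or WT-C replicate 2 (adjusted p = 0.179) or 3 (adjusted p = 0.159). Neither call held with no filter on low counts (adjusted p = 0.0505 and 0.0526), nor that of Upf1-FLAG when fitted with WT-C alone (adjusted p = 0.0623).

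CTR1 was the 1 copper gene of the 7 called in each of these comparisons, where 3.4%, 9.28% and 7.92% of all transcripts were. Against Upf1-FLAG, edgeR and DESeq2 called 0 of the 7 in DE572AA-FLAG and in Upf1-FLAG_upf2Δ, where edgeR called 0.786% and 1.45% of all, with 1 and 0 genes at an unadjusted p under 0.05. FRE1 footprints were lower too, with log2 fold changes against WT-C of −1.31 (adjusted p = 0.00121), −2.04 (adjusted p = 1.35e-05) and −1.36 (adjusted p = 0.000364) by edgeR for Upf1-FLAG, DE572AA-FLAG and Upf1-FLAG_upf2Δ. In the N-terminal experiment edgeR and DESeq2 called 0 of 6 genes in every strain. Without CHX edgeR called 0.0461% of all transcripts for FLAG-Upf1, 0.254% for FLAG-Upf2 and 0.023% for FLAG-Upf3. With CHX it called 0.0461%, 0.23% and 0.023% in the same strains, and 0.968% in FLAG-Upf1+Upf2+Upf3. At an unadjusted p under 0.05 there was 1 gene each in FLAG-Upf3 noCHX, FLAG-Upf1 CHX and FLAG-Upf1+Upf2+Upf3 CHX. The last was CTR1, with 217 and 121 CPM in FLAG-Upf1+Upf2+Upf3 CHX, against 328 and 493 CPM in WT-N CHX (−1.43, adjusted p = 0.148 by edgeR, and −1.47 with 0.0431 with no filter on low counts).

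Footprints per RNA, tested as the interaction of library kind and strain, gave 0 of the copper genes called by edgeR or DESeq2 in DE572AA-FLAG and Upf1-FLAG_upf2Δ, against WT-C or against Upf1-FLAG. Among all transcripts edgeR called 1.95% and 2.4% against WT-C, and 0.106% and 0.166% against Upf1-FLAG. For CTR1 the log2 change of this ratio was 0.49 (SE 0.24, adjusted p = 0.305) in DE572AA-FLAG and 0.44 (SE 0.24, adjusted p = 0.357) in Upf1-FLAG_upf2Δ against WT-C. ATX1 in DE572AA-FLAG against Upf1-FLAG, at 0.87 (SE 0.36, adjusted p = 0.47), was the 1 gene at an unadjusted p under 0.05.

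The genes differed widely in footprints per RNA. As the mean total 80S FPKM over the mean RNA FPKM of the 12 C-terminal lysates, SOD1 stood at 1.61 (single lysates 1.34 to 2.06), CTR1 1.15 (0.665 to 1.47), ATX1 0.908 (0.497 to 2.36), CUP2 0.745 (0.421 to 2.07) and CTR2 0.559 (0.294 to 0.674). CTR3 stood at 0.397 (0 to 1.14), MAC1 0.393 (0.227 to 0.524), CCC2 0.246 (0.113 to 0.351) and CRS5 0.00941 (0 to 0.0838), around a median of 0.449 over 5518 transcripts. SOD1 was above 95.9% and CTR1 above 89.5% of those transcripts, whereas MAC1 was above 43.5%, CCC2 above 24.5% and CRS5 above 3.15%. These ratios depend on how FPKM scales length, which differed between RNA and footprints. In WT-C, ATX1 averaged 76.2 FPKM and 14.8 CPM in RNA, and 58.1 FPKM and 21.2 CPM in footprints. CTR1 averaged 427 FPKM and 615 CPM in RNA, and 396 FPKM and 637 CPM in footprints. By CPM the order of these genes in WT-C turned, and the part of length was not tested.

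**Figure D4:**
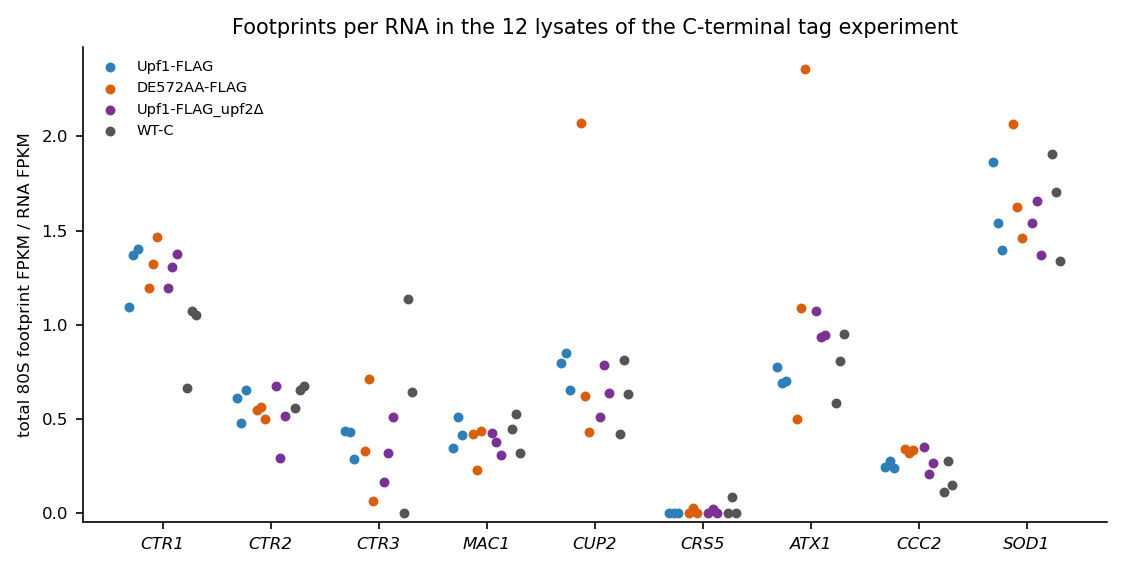
Ratio of total 80S FPKM to RNA FPKM for the 9 copper genes, with a point for each of the 12 lysates of the C-terminal experiment. SOD1 has the highest median, at 1.58, and CRS5 the lowest, with most lysates at 0.

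CRS5 was almost without footprints although its RNA was present at 5.87 to 16.5 CPM in all 30 RNA libraries. In the 12 C-terminal lysates it had 3 footprints of 21513900, beside 19361 RNA counts. Among 5039 mRNAs with at least as much RNA, 47 (0.933%) had as few footprints. Of the 30 total footprint libraries of both experiments, 22 held 0 CRS5 counts, and the IP libraries held 2.44 estimated counts in all. The exception was FLAG-Upf1 noCHX, with 6.21 counts (16 CPM) in replicate 1 and 48.8 (309 CPM) in replicate 2. In the classes of 20 to 23 nt and 27 to 32 nt, estimated separately, both replicates together held 48.2 and 0 counts. The tables list CRS5 without the mRNA suffix, as they do 6 entries of biotype pseudogene in all, and the other 5 of these had 55.5 to 1884 footprints. The other 16 entries without the suffix, SCR1 and RPR1 among them, have no biotype and held 0 footprints. Whether the deposited alignment treated CRS5 differently was not tested.

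IP footprints were set against total footprints of the same lysates, which asks which transcripts are over-represented on ribosomes bound by the tagged protein. The fits did not pair these libraries by lysate, except where a block is named. IP from untagged cells was not analysed here, so binding to the beads and binding to the protein cannot be told apart. In the C-terminal experiment CCC2 was higher in IP in Upf1-FLAG and Upf1-FLAG_upf2Δ, while SOD1 and ATX1 were lower in all 3 strains, MAC1 lower in Upf1-FLAG and Upf1-FLAG_upf2Δ, and CTR1 lower in DE572AA-FLAG and Upf1-FLAG_upf2Δ.

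CCC2 had 50.8, 50.5 and 90.9 CPM in IP and 17.5, 26.8 and 28.5 CPM in total footprints of Upf1-FLAG, a log2 fold change of 1.26 (SE 0.28, adjusted p = 0.000529 by edgeR). In Upf1-FLAG_upf2Δ it had 47.3, 43.6 and 68.6 CPM in IP and 30.5, 13.8 and 19.6 CPM in total footprints (1.19, SE 0.30, adjusted p = 0.00181). The groups did not overlap in either strain. In DE572AA-FLAG it had 48.7, 38.8 and 28.3 CPM in IP and 29.3, 28.3 and 24.8 CPM in total footprints (0.32, adjusted p = 0.404), and the difference of DE572AA-FLAG from Upf1-FLAG, −0.94, had an adjusted p of 0.612 by edgeR.

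SOD1 had 363, 230 and 346 CPM in IP and 495, 452 and 416 CPM in total footprints of Upf1-FLAG (−0.74, SE 0.14, adjusted p = 4.58e-05). In DE572AA-FLAG it had 347, 285 and 358 CPM in IP and 411, 432 and 387 CPM in total footprints (−0.49, SE 0.13, adjusted p = 0.00322), and in Upf1-FLAG_upf2Δ 244, 193 and 278 CPM in IP and 423, 409 and 391 CPM in total footprints (−0.92, SE 0.14, adjusted p = 2e-06). Every IP library was below every total library of its strain. CTR1 overlapped in Upf1-FLAG, with 418, 292 and 402 CPM in IP and 354, 478 and 501 CPM in total footprints (−0.46, adjusted p = 0.0947 by edgeR, and −0.48 with 0.0079 with the culture number as a block).

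CTR1 had 289, 235 and 314 CPM in IP and 363, 344 and 438 CPM in total footprints of DE572AA-FLAG (−0.63, SE 0.21, adjusted p = 0.0286), a call lost without IP replicate 2 (−0.53, adjusted p = 0.0906) or total replicate 1 (adjusted p = 0.0555) or 3 (−0.52, adjusted p = 0.106). In Upf1-FLAG_upf2Δ it had 239, 329 and 367 CPM in IP and 369, 565 and 491 CPM in total footprints, again without overlap (−0.78, SE 0.22, adjusted p = 0.00831 by edgeR).

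The lower calls of ATX1 and MAC1 rested on few counts. ATX1 had 0, 7 and 1 counts in IP and 45, 42 and 34 in total footprints of Upf1-FLAG, 7, 15 and 8 in IP and 15, 29 and 63 in total footprints of DE572AA-FLAG, and 9, 2 and 2 in IP and 37, 49 and 39 in total footprints of Upf1-FLAG_upf2Δ. The log2 fold changes were −2.12 (SE 0.56, adjusted p = 0.00241), −1.60 (SE 0.41, adjusted p = 0.00228) and −1.69 (SE 0.49, adjusted p = 0.0055) by edgeR. Without IP replicate 2 the Upf1-FLAG value was −3.88, and without total replicate 3 the DE572AA-FLAG value was −0.92 and no longer called (adjusted p = 0.0877).

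MAC1 had 0, 9 and 0 counts in IP and 39, 50 and 34 in total footprints of Upf1-FLAG (−2.01, SE 0.53, adjusted p = 0.00251), and 5, 1 and 2 in IP and 35, 37 and 28 in total footprints of Upf1-FLAG_upf2Δ (−2.06, SE 0.55, adjusted p = 0.00255). Its Upf1-FLAG value rests on the 9 counts of IP replicate 2, without which both remaining IP libraries are at 0. DE572AA-FLAG had 8, 13 and 10 counts in IP and 22, 16 and 24 in total footprints (−0.78, adjusted p = 0.148). CUP2 was at −1.01 in DE572AA-FLAG (adjusted p = 0.0501) and −1.08 in Upf1-FLAG_upf2Δ (adjusted p = 0.0684), and with the culture block edgeR called both, at −0.96 (adjusted p = 0.0354) and −1.01 (adjusted p = 0.0484). CUP2 counts were low too, at 17, 16 and 7 in IP and 50, 26 and 16 in total footprints of DE572AA-FLAG. In Upf1-FLAG_upf2Δ they were 7, 5 and 5 in IP and 23, 53 and 36 in total footprints.

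Of the 7 genes tested, Upf1-FLAG had 4 called (57.1%, against 46.4% of all transcripts), DE572AA-FLAG had 3 (42.9%, against 38.9% of all) and Upf1-FLAG_upf2Δ had 5 (71.4%, against 46.3% of all). Across all transcripts this ratio moved with coding length, with Spearman correlations of 0.421, 0.361 and 0.412 over 4976 transcripts that share the same libraries. Median log2 fold changes were −0.95, −0.64 and −0.87 for the 689 transcripts up to 600 nt and 0.35, 0.28 and 0.36 for the 452 of 3000 nt or more. ATX1, SOD1 and CTR2 are in the short class and CCC2 in the long one, and the part of length in their values was not tested. CTR2 was not called in any of these strains. In Upf1-FLAG it had 29.05, 32.5 and 40.7 CPM in IP, above its 23.5, 18.5 and 26.96 CPM in total footprints. In DE572AA-FLAG its 14.9, 14.8 and 18.9 CPM in IP lay below its 23.9, 23.4 and 19.6 CPM in total footprints. The libraries overlapped in Upf1-FLAG_upf2Δ, at 26.3, 21.8 and 18.9 CPM in IP and 28.99, 11.6 and 21.7 CPM in total footprints. Differences between the strains, DE572AA-FLAG minus Upf1-FLAG and Upf1-FLAG_upf2Δ minus Upf1-FLAG, gave 0 calls among the 7 in edgeR, where 0.236% and 0% of all transcripts were called, with 2 genes (CCC2, and CTR2 at −1.08 with adjusted p = 0.525) and 0 genes at an unadjusted p under 0.05.

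SOD1 was lower in IP than in total footprints in all 7 groups of the N-terminal experiment as well. Without CHX it had 353 and 380 CPM in IP and 1114 and 942 CPM in total footprints of FLAG-Upf1 (−1.52, SE 0.34, adjusted p = 0.00331). It had 107 and 89.8 CPM in IP and 706 and 860 CPM in total footprints of FLAG-Upf2 (−3.01, SE 0.34, adjusted p = 6.16e-09) and 72.0 and 71.8 CPM in IP and 1290 and 972 CPM in total footprints of FLAG-Upf3 (−3.99, SE 0.38, adjusted p = 6.82e-11). With CHX it had 242 and 237 CPM in IP and 868 and 655 CPM in total footprints of FLAG-Upf1 (−1.64, SE 0.34, adjusted p = 0.00193), and 122 and 79.0 CPM in IP and 845 and 679 CPM in total footprints of FLAG-Upf2 (−2.93, SE 0.35, adjusted p = 1.27e-08). No IP value reached a total value of its group.

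With CHX, FLAG-Upf3 had 89.2 and 57.9 CPM of SOD1 in IP and 931 and 912 CPM in total footprints (−3.67, SE 0.37, adjusted p = 1.16e-10), while FLAG-Upf1+Upf2+Upf3 had 164 and 295 CPM in IP and 543 and 1137 CPM in total footprints (−1.81, SE 0.38, adjusted p = 0.00105 by edgeR). The FLAG-Upf1 calls were lost without IP replicate 2 (adjusted p = 0.057 without CHX and 0.0646 with it) and, without CHX, without total replicate 1 (−1.25, adjusted p = 0.0857). The FLAG-Upf1+Upf2+Upf3 call was lost when its IP and total libraries were fitted alone (adjusted p = 0.287). The calls in FLAG-Upf2 and FLAG-Upf3 held in every alternative. Short transcripts as a class were lower here too, with median log2 fold changes of −2.35 to −0.98 for the 546 transcripts up to 600 nt.

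**Figure D5:**
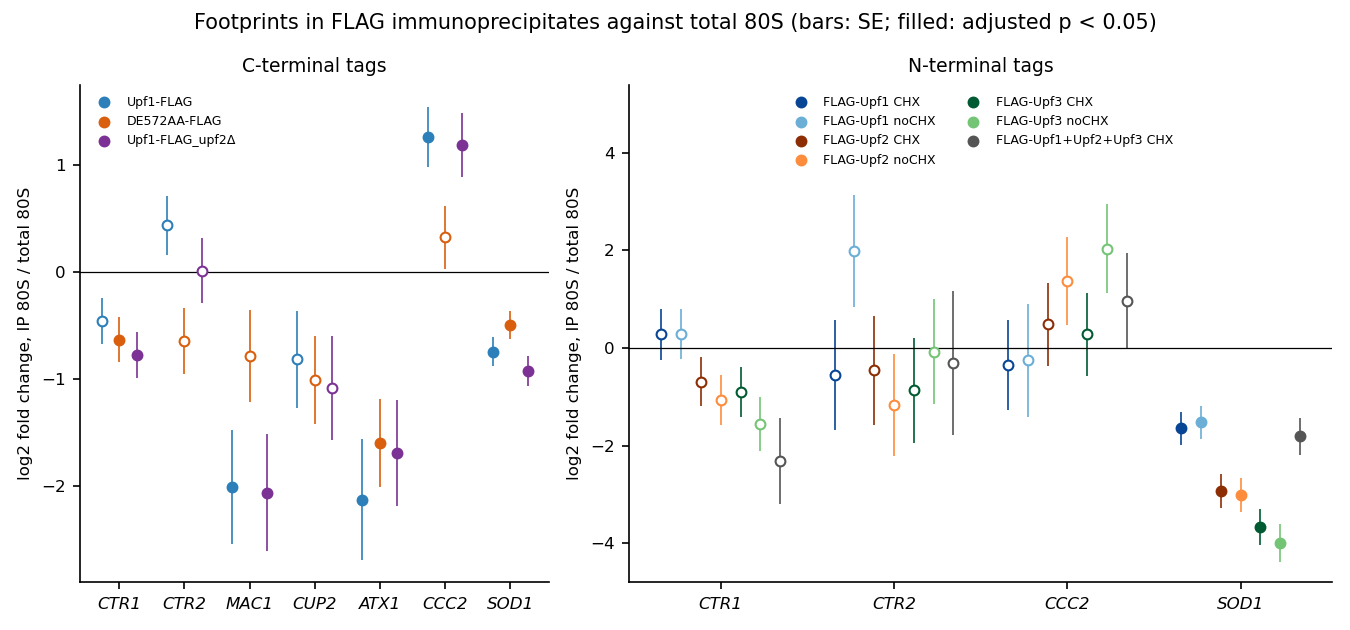
Log2 fold change of IP against total 80S footprints for copper genes in the C-terminal strains (left) and the N-terminal strains (right), with bars showing the SE and filled points an adjusted p below 0.05 by edgeR. The right panel shows CTR1, CTR2, CCC2 and SOD1 only, without MAC1 and CUP2. SOD1 lies between −0.92 and −0.49 on the left and between −3.99 and −1.52 on the right, and CCC2 lies above 0 on the left, at 0.32 to 1.26.

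SOD1 was the 1 gene of the 6 tested that was called in each N-terminal group. Of all transcripts, 4.53% were called in FLAG-Upf1 noCHX, 11.3% in FLAG-Upf2 noCHX, 11.8% in FLAG-Upf3 noCHX, 3.04%, 12.6% and 14.6% in the same strains with CHX, and 18.5% in FLAG-Upf1+Upf2+Upf3. CTR1 in FLAG-Upf3 noCHX had 162 and 71.8 CPM in IP and 357 and 308 CPM in total footprints, without overlap (−1.55, adjusted p = 0.0653 by edgeR). It was called with the culture block (−1.62, adjusted p = 0.044) and with that group fitted alone (−1.65, adjusted p = 0.00411). When only footprints of 27 to 32 nt were counted, it was called at −3.39 (adjusted p = 0.0019). In FLAG-Upf1+Upf2+Upf3 CHX, CTR1 had 29.9 and 38.5 CPM in IP and 217 and 121 CPM in total footprints (−2.31, adjusted p = 0.0614 by edgeR). These CPM rest on only 2 and 3 counts in IP and 36 and 13 counts in total footprints. CCC2 ranged from 0 to 256 CPM in the N-terminal IP libraries and was not called there in the fit over all N-terminal groups. Both ends of this range come from shallow libraries. The 256 CPM were 20 counts in FLAG-Upf1+Upf2+Upf3 CHX replicate 2. The values of 0 were in FLAG-Upf1 noCHX replicate 2 and FLAG-Upf1+Upf2+Upf3 CHX replicate 1, where 3 counts make 33.6 and 44.8 CPM. In FLAG-Upf2 noCHX CCC2 stood at 1.37 (adjusted p = 0.385), and at 1.36 (adjusted p = 0.0477) with that strain fitted alone. With CHX, CUP2 stood at −3.41 in FLAG-Upf2 (adjusted p = 0.156) and −3.63 in FLAG-Upf3 (adjusted p = 0.131). Fitted alone, edgeR called both, at −3.49 (adjusted p = 0.000897) and −3.70 (adjusted p = 0.0171). These rest on 2 and 2 IP counts against 21 and 21 total, and on 0 and 3 against 9 and 21. CTR1 fitted alone was called in FLAG-Upf2 noCHX (−1.10, adjusted p = 0.00414) and FLAG-Upf2 CHX (−0.74, adjusted p = 0.0011). It was also called in FLAG-Upf3 CHX (−1.03, adjusted p = 0.0173).

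Over the 30 RNA libraries, with values centred within each experiment and treatment, the patterns of the copper genes were compared with those of 5362 transcripts at 10 CPM or more on average (Pearson correlation of log2 of CPM plus 1, as a description, since all genes share the libraries and their depth). FRE1 (0.94) and CRR1 (0.857) were most like CTR1, and SMF3 (0.945) and FRE4 (0.94) most like CCC2. The nearest were SNL1 (0.758) and BGL2 (0.754) for CTR2, MRX7 (0.789) and KEG1 (0.781) for MAC1, and SMX3 (0.89) and RRD1 (0.859) for CUP2. For the others they were DIG2 (0.732) and RAD14 (0.729) for CRS5, RPS25B (0.849) and YGK1 (0.848) for ATX1, and DPM1 (0.902) and RSM7 (0.9) for SOD1, while CTR3 was below the level limit. Among the 9 genes themselves, ATX1 and CCC2 had a correlation of 0.76 and CUP2 and SOD1 of 0.753, and CTR3 and CCC2 had −0.572 and CTR1 and CRS5 −0.51.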

How the data were processed

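Yeast libraries of RNA and of total or IP 80S footprints (83 in all) were read from the authors' tables. The deposited expected counts per transcript (RSEM, with Bowtie and cutadapt, builds R64 and sacCer3, per the submitters' processing notes, without versions) were rounded to whole numbers and tested, and the deposited FPKM values, made by the authors from the same estimates, were used to compare levels between genes. The aligner's settings and the strand handling are not given in the sources used here. Footprints of 27 to 32 nt were used with CHX, and the deposited class of 20 to 32 nt without it.

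edgeR 4.0.16 (R 4.3.3) fitted 1 quasi-likelihood model per kind of library and experiment, with TMM scaling, transcripts kept by filterByExpr with a minimum count of 10, and Benjamini-Hochberg adjustment over all transcripts tested, at 0.05, in 42 comparisons. The number tested was 6739 and 6736 for RNA (C-terminal and N-terminal experiments), 5086 and 4339 for total footprints, 5078 and 4477 for IP with total footprints, and 6624 for footprints per RNA. The script was tested on simulated counts. SEs were taken as the log2 fold change over the square root of F. CPM is expected counts scaled to the same library total. Python 3.11.15 and DESeq2 1.42.0 served the other steps.

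All 9 copper genes are named with their RNA values in the C-terminal experiment. Elsewhere, values of genes that were not called are given only in part. Of the 23 other copper genes, those called in DE572AA-FLAG against WT-C are named with their values. The genes, the lists and the tests were chosen with earlier results of these data known. Alternatives were relative log expression (RLE) factors, DESeq2, no filter on low counts, a fit on the compared groups alone, a replicate block, leaving out each library, and 27 to 32 nt footprints alone. Terms for differences between strains, and library size without scaling for CHX against noCHX, were added after seeing the data. Culture numbers pair RNA, total and IP libraries of 1 lysate, and CHX with noCHX lysates, by the labels. The fits reported did not use these pairs, which entered only as the block alternative. For CHX and noCHX RNA of 1 culture, 8 correlations of deviations ran from −0.123 to 0.484, 4 of them over 0.1. Strain replicates share only a number (18 same-number correlations of RNA deviations in the C-terminal experiment ran from −0.193 to 0.183, 4 of them over 0.1). The labels do not say in words that replicates were separate cultures, so p-values measure the spread between these samples, which may be technical.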

Additional observations from a re-analysis of the deposited data

Results flagged for a closer look

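Footprints of 37 to 43 nt, a class outside the comparisons above, were deposited for 10 IP libraries (1872582 counts) and 4 total libraries (66467 counts) and held counts for copper genes above the limit that a count of 0 allows (1.60 CPM in IP and 45.1 CPM in total libraries, by counting error alone). Summed over the IP libraries of this class, SOD1 had 1557 counts (832 CPM), CTR1 435 (232 CPM), CUP2 85 (45.4 CPM), CCC2 44 (23.5 CPM), MAC1 42 (22.4 CPM) and CTR2 28 (15.0 CPM). These sums pool both experiments. Over the 4 groups with IP libraries of this class, SOD1 ranged from 274 to 943 CPM, CTR1 from 126 to 307 CPM, CUP2 from 17.4 to 97.8 CPM, CCC2 from 0 to 41.9 CPM, MAC1 from 7.91 to 78.2 CPM and CTR2 from 11.1 to 22.7 CPM, so the order of the lower 4 is not that of each group. In the total libraries SOD1 had 24 counts (361 CPM) and CTR1 19 (286 CPM).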

How the results depend on the processing

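Of 49 calls among the 9 copper genes, 27 held under every alternative run. Of 509 repeats of these calls, 446 kept the call, 62 lost it in the same direction and 1 turned. Among the other 23 copper genes 1047 of 1281 kept it, 226 lost it and 8 turned. All turns came with library size alone in CHX against noCHX: CTR2 (0.13) and FET5 (0.14) in WT-N, FET5 (0.0157) in FLAG-Upf1, CUP1-1 and CUP1-2 (0.0794 each), GEF1 (0.21), CMC1 (0.0941) and SMF1 (0.14) in FLAG-Upf2, and CMC1 (0.0010) in FLAG-Upf3. There higher and lower calls over all transcripts were 3957 and 371, 3286 and 275, 3909 and 295, and 3621 and 400 (against 2074 and 1988, 1741 and 1521, 1809 and 1874, and 1838 and 1875 with TMM) in WT-N, in FLAG-Upf1, then in FLAG-Upf2 and in FLAG-Upf3.

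Fitted on the compared groups alone, the number of copper genes called was 4 for RNA of Upf1-FLAG against WT-C (2 as reported above), 1 for DE572AA-FLAG against Upf1-FLAG (2), 0 for FLAG-Upf1 and FLAG-Upf2 noCHX (1 each), 0 for total footprints of Upf1-FLAG (1), 2 for CHX in WT-N (5), 4 for CHX in FLAG-Upf1 (1), 3 for IP in FLAG-Upf2 noCHX, FLAG-Upf2 CHX and FLAG-Upf3 CHX (1 each), 2 for IP in FLAG-Upf3 noCHX (1) and 0 for IP in FLAG-Upf1+Upf2+Upf3 (1). With no filter it was 0 for total footprints of Upf1-FLAG and Upf1-FLAG_upf2Δ (1 each) and 1 for FLAG-Upf1+Upf2+Upf3 (0). CHX in FLAG-Upf1 gave 2 with RLE, 4 with DESeq2 and 5 with library size alone (1), and FLAG-Upf1 noCHX RNA 2 with DESeq2 (1). IP in FLAG-Upf3 noCHX gave 2 with RLE, DESeq2, no filter, the block and 27 to 32 nt footprints (1), and IP in FLAG-Upf1+Upf2+Upf3 gave 2 with RLE, DESeq2 and no filter (1). The cause was not tested.

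With 1 library left out, calls ranged over 1 to 3, 3 to 4 and 3 to 3 for RNA of Upf1-FLAG, DE572AA-FLAG and Upf1-FLAG_upf2Δ against WT-C, 0 to 3 and 0 to 1 for DE572AA-FLAG and Upf1-FLAG_upf2Δ against Upf1-FLAG, 0 to 3 and 0 to 1 for FLAG-Upf1 and FLAG-Upf2 noCHX, 0 to 1 for total footprints of Upf1-FLAG, Upf1-FLAG_upf2Δ and FLAG-Upf3 noCHX, 2 to 6, 1 to 2, 2 to 5 and 3 to 5 for CHX in WT-N, FLAG-Upf1, FLAG-Upf2 and FLAG-Upf3, and 4 to 5, 2 to 4, 0 to 1 and 0 to 1 for IP in Upf1-FLAG, DE572AA-FLAG, FLAG-Upf1 noCHX and FLAG-Upf1 CHX. The replicate block changed no strain call among the 9 genes against WT-C or WT-N beyond those given above.

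With RLE, higher and lower calls over all transcripts were 465 and 617 for FLAG-Upf1 CHX RNA (599 and 835 with DESeq2, 582 and 387 with TMM), 813 and 874 for FLAG-Upf1+Upf2+Upf3 RNA (907 and 603 with TMM), 30 and 122 for IP in FLAG-Upf1 CHX (41 and 95 with TMM), and, for footprints per RNA, 40 and 51 in DE572AA-FLAG (96 and 33 with TMM) and 40 and 53 in Upf1-FLAG_upf2Δ (125 and 34 with TMM), both against WT-C. N-terminal footprint libraries are shallow, and CTR3, CRS5 and ATX1 footprints there were too few to test.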

Other observations

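FET4, the low-affinity iron and copper transporter gene among the other 23 copper genes, was singled out after its values were seen. Its RNA lay at 180 to 218 CPM in the C-terminal libraries, with log2 fold changes of −0.07, −0.07 and −0.08 against WT-C in Upf1-FLAG, DE572AA-FLAG and Upf1-FLAG_upf2Δ, none of them called by edgeR. In footprints it stood at 7102 to 9290 CPM in the C-terminal IP libraries and at 42.4 to 80.4 CPM in the total libraries, log2 fold changes of 7.13 (SE 0.15), 7.10 (SE 0.16) and 7.17 (SE 0.15) in the same strains. In the N-terminal experiment it stood at 1070 to 4859 CPM in IP and 16.2 to 229 CPM in total footprints, with log2 fold changes of 4.07 to 6.14. IP from untagged cells was not analysed here.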
